A study of Mus musculus with 60 samples.

Results

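The brain table of this circular RNA study listed 1856 circRNAs, of 2799 different circRNAs listed in the tables of all 5 organs. All of its rows were taken, and no row was chosen by its values. Circular RNAs (circRNAs) were sequenced in brains of male mice aged 4 months, 3 of the genotype Ftsj1_DF (Ftsj1-deficient) and 3 wild-type (WT), and each library was sequenced in 2 runs because the first gave few reads. No treatment or transgene is named for either genotype, and the labels group the mice into brothers. Per the labels' protocols, total RNA was freed of ribosomal RNA, polyadenylated and digested with RNase R before library preparation.

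A circRNA forms when the splicing machinery joins the end of an exon to the start of the same or an earlier exon of its own transcript, a step called back-splicing. The closed ring has no free ends, so it resists exonucleases such as RNase R, which degrades linear RNA. Brain is a tissue known for many circRNAs, often from genes active at synapses. Ftsj1 encodes a methyltransferase that modifies the ribose of tRNAs near the anticodon, and mutations of the human gene are a known cause of X-linked intellectual disability.

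Each row is named by the first and last base of the back-splice on the mouse build GRCm39. No genome or annotation of that build was used here, so positions were given no exon, intron or strand, and no sequence is shown. A host gene is named for only 5 circRNAs, from names supplied with the series, and each name was checked by length alone. The span of the circRNA had to equal the distance from an exon start to an exon end within 1 transcript of that gene on the same chromosome in GENCODE M21, which is on another build. The host lists for neuronal, glial, vascular and immune markers could therefore not be counted, and the tissue label was not checked against marker genes.

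The authors' deposited table gives a mean normalized count for each circRNA and no value per library. These means are printed to about 15 digits, and each is a sum of whole counts divided by the size factors of the libraries, so the counts behind them could be recovered. The means required exactly 6 libraries. The search allowed only sets without a count of 1 and with counts in at least 3 libraries. Of the 1749 circRNAs with a mean below 25, all 1749 had 1 such set of 6 whole counts that gave the printed mean. For the 107 circRNAs above that mean, such a set was kept only if a fit to it could also reach the deposited standard error (SE). This left 1 set for 93 of them. For the other 14 the set was taken whose fit gave the deposited fold change. A fit of 2 groups of 3 libraries to the recovered counts then returned the deposited log2 fold change of all 1856 circRNAs to within 5.6e-05. The spread between libraries in this fit was set to give the deposited SE. For the 14 circRNAs chosen by fold change the agreement was built in, and for the others it was a check. Of the 10 ways to divide 6 libraries into groups of 3, the one used correlated with the deposited fold changes at 0.994 and the next best at 0.56 in size, across circRNAs.

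The 6 libraries are called A to F in order of falling size factor. Libraries B, D and E form the side of the contrast on which a positive fold change means higher, and A, C and F the other side. The sources used here do not say which side is Ftsj1_DF, and no library was matched to a mouse. The recovered values are therefore given per library, the tests are the authors' own, and no circRNA is said to be higher in a genotype. Whether a recovered column sums both runs of a library or holds 1 of them is not stated either.

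Depth, taken here as the sum of recovered counts over the listed circRNAs, differed 20.9-fold between libraries. Sequenced reads per library were not compared. The recovered counts summed to 63346 in library A, 39545 in B, 33297 in C, 11123 in D, 5135 in E and 3024 in F. Of the 1856 circRNAs, library A had a count for 1547, B for 1756, C for 1698, D for 1145, E for 480 and F for 498. The deepest library was thus not the one with the most circRNAs. The search allowed no count of 1 and required counts in at least 3 libraries, and every circRNA had a set under these rules. A 0 can therefore stand for a single read as well as for none. In normalized counts, 3 reads correspond to 0.789 in library A and to 12.6 in library F, and differences below that size were not detectable in the shallow libraries.

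Library E stood apart from the other 5 in which circRNAs it held. CircRNAs that the spleen table also lists took 75.3% of its counts (95% Wilson interval 74.1 to 76.5), against 29.1% to 32.8% in the other libraries. CircRNAs listed in the brain table alone took 8.32% of its counts (7.59 to 9.10), against 38.2% to 42.3% elsewhere. Across circRNAs, log2 normalized counts (plus 1) of library E correlated with those of the other libraries at 0.07 to 0.19, while the other libraries correlated with each other at 0.26 to 0.66. These are descriptions over 1856 circRNAs that share libraries and depth. Library F, with fewer counts than E, had 31.2% in spleen-listed and 42.2% in brain-only circRNAs. What made library E differ was not tested, and results that rest on it are given with and without it.

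**Figure D1:**
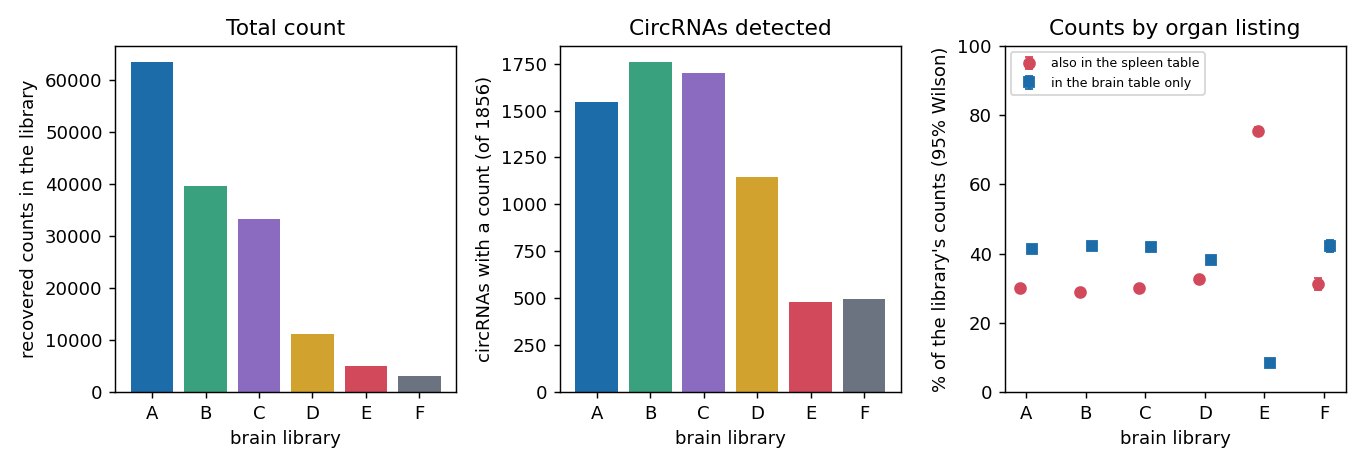
Recovered counts (left), circRNAs with a count (middle) and the share of counts in circRNAs also listed in the spleen table or listed in the brain table alone (right, points with 95% Wilson intervals) for the 6 brain libraries. Library E has 75.3% of its counts in spleen-listed circRNAs, while the other 5 libraries lie between 29.1% and 32.8%.

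The first question was which circRNAs made up the brain table and how abundant they were. Most were rare: by the authors' deposited table the mean normalized count had a median of 3.87, with quartiles of 2.13 and 8.06. The lowest was 0.455 and the highest 364.5. Only 12 circRNAs, 0.647%, had a mean of 100 or more, and 418 had a mean below 2. The 12 most abundant held 14.2% of the summed mean and the 100 most abundant held 37.1%. Without library E these shares were 14.0% and 37.0%, and 10 of the 12 leaders stayed among the first 12.

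The leading circRNA was that of Gigyf2 at chr1:87291826-87307730. Gigyf2 encodes a partner of the cap-binding repressor 4EHP in translational silencing. Its span of 15905 bases equals 1 of the 749 exon start to exon end distances of Gigyf2. Counts in libraries A to F were 906, 1121, 726, 293, 71 and 118, and normalized counts were 238, 476, 396, 398, 182 and 497. All 6 libraries held it, the lowest value was in E, and the sides of the contrast overlapped. In the authors' deposited table its mean was 364.5 normalized counts and its log2 fold change was −0.10 ± 1.09 (SE), with an unadjusted DESeq2 p of 0.93.

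The second was a short circRNA at chr5:118731398-118731635, spanning 238 bases. Its counts were 1859, 786, 215, 372, 75 and 54, the largest number of counts of any circRNA in library A. Normalized counts were 489, 334, 117, 505, 192 and 227, so libraries A and D were highest and C was lowest. Both the highest and the lowest side member overlapped with the other side.

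The third by mean was the circRNA of Ikzf1 at chr11:11650205-11657904, and here 1 library decided the rank. Ikzf1 encodes Ikaros, a transcription factor of lymphoid and other blood cells. Its counts were 0, 3, 2, 6, 565 and 0 in libraries A to F. Library E thus held 99.3% of the normalized count, and this circRNA made up 11.0% of all counts of that library (10.2 to 11.9). The mean normalized count was 243 over the 6 libraries and 2.10 without E, which moved it from rank 3 to rank 1417.

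The circRNA at chr2:70600348-70617339 was the second most counted in library E. Its normalized counts were 137, 24.6, 76.9, 157, 497 and 88.4. Library E was the highest and held 50.7% of the total, and the mean was 164 with it and 96.9 without it.

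Other leaders showed the reverse pattern. At chr5:117638778-117643704, listed in brain alone, normalized counts were 438, 158, 67.7, 195, 0 and 430. At chr10:89905330-89913004, also listed in brain alone, they were 135, 211, 252, 100.5, 0 and 139. At chr18:39259886-39283171 they were 120, 101, 39.3, 109, 0 and 232. Each had a count in 5 libraries and none in E. Library F, with fewer counts in all than E, had 102, 33 and 55 counts of these 3 circRNAs.

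Some abundant circRNAs varied among libraries on the same side. The circRNA at chr13:45948985-46110051 had normalized counts of 57.3, 166, 320, 97.7, 10.3 and 101. Libraries A and C stand on the same side and differed most among the 5 libraries other than E. At chr1:178150699-178152878 the values were 313, 154, 176, 247, 46.1 and 75.8, and A and F, again on 1 side, lay at opposite ends among those 5 libraries. At chr10:13879945-13942428 they were 272, 115, 111, 213, 66.6 and 63.2.

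CircRNAs at chr3:51215471-51233456 and chr2:92044394-92061069 were more even, as was that of Gigyf2. The first had normalized counts of 78.6, 182, 75.3, 138, 74.3 and 101. The second had 104, 116, 153, 121, 89.7 and 50.5. Their SEs in the authors' deposited table, 1.07 and 1.09, were among the smallest.

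**Figure D2:**
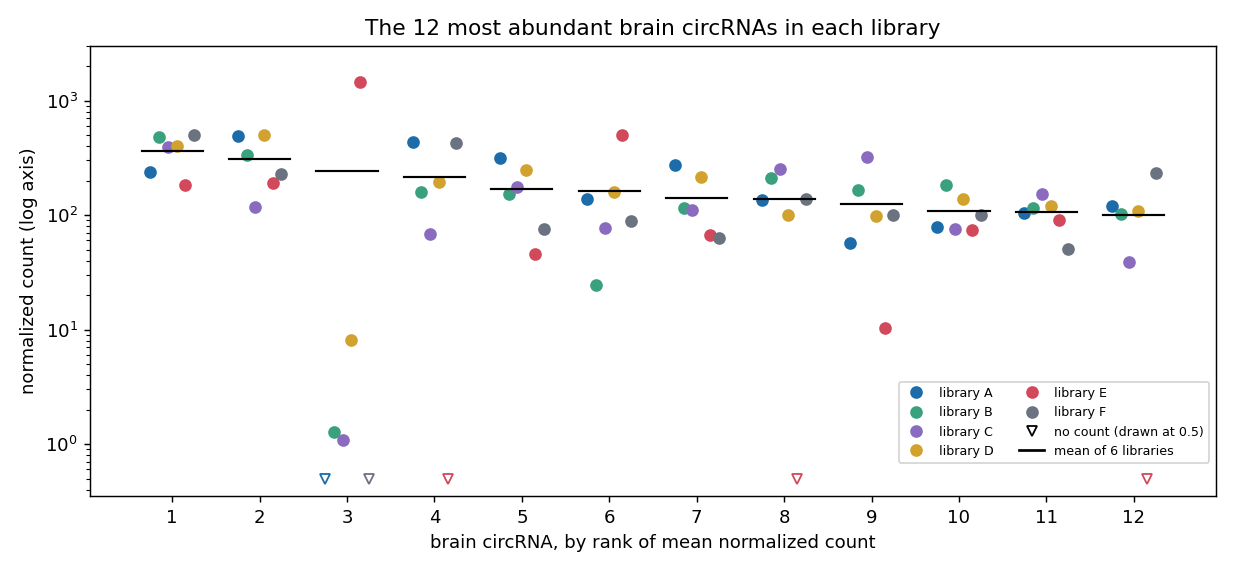
Normalized counts of the 12 most abundant brain circRNAs in libraries A to F on a log axis, with the mean as a black bar and an open triangle for no count. The third circRNA, that of Ikzf1, reaches 1448 in library E and 8.15 or less in the others, and 3 of the 12 have no count in E.

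CircRNAs that head other organs' tables were also in the brain table. The heart leader at chr11:6263788-6267080, whose 3293 bases equal an exon distance of Ogdh (an enzyme of the tricarboxylic acid cycle), had counts of 61, 64, 100, 7, 9 and 2. Its normalized counts ran from 8.42 in F to 54.5 in C. The liver leader at chr7:58890715-58896965 matched Ube3a, a ubiquitin ligase linked to Angelman syndrome, with a span of 6251 bases. Its counts were 338, 68, 37, 34, 47 and 0, and its normalized counts ran from 0 in F to 120 in E.

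Most circRNAs were seen in few libraries. Of the 1856, 831 (44.8%) had counts in 3 libraries, 591 in 4, 337 in 5 and 97 (5.23%) in all 6. By the authors' deposited table, medians of the mean normalized count were 2.14, 4.70, 10.7 and 26.2 in these classes. A single library held over 50% of the normalized count for 629 circRNAs (33.9%). Of these, 156 had it in E, 134 in C, 98 in F, 94 in A, 94 in D and 53 in B. Among the 156 of library E, 72 were also listed in spleen and 47 were listed in brain alone. Among the 98 of library F, none was listed in spleen and 79 were listed in brain alone. The same counts were 2 and 74 in A, 0 and 43 in B, 8 and 89 in C, and 1 and 72 in D. Over all 1856 circRNAs, 12.1% were listed in spleen and 59.3% in brain alone.

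CircRNAs listed in more organs had higher means in brain. The 1101 listed in brain alone had a median of 2.84 for the mean normalized count by the authors' deposited table, the 306 listed in 1 other organ 4.47, and the 133 listed in all 5 organs 20.2. Without library E these medians were 3.23, 4.61 and 13.8, so the order held. Tables were filtered organ by organ, so a circRNA that a table leaves out may still occur in that organ. Spleen, which listed 308 circRNAs, shared 225 with brain, and kidney shared 542.

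The second question was how far apart the ends of brain circRNAs lay. Genomic span counts every base from the first to the last, including introns, and differs from the length of the ring itself. The median was 6092.5 bases, with quartiles of 1837.5 and 16969.5. The shortest spanned 143 bases and the longest 189934. There were 58 circRNAs under 300 bases, 247 from 300 to 1000, 538 from 1000 to 5000, 326 from 5000 to 10000, 572 from 10000 to 50000 and 115 above that.

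The shortest was at chr13:42208876-42209018, with counts of 3, 18, 5, 3, 5 and 0. It was followed by chr15:59327162-59327315 (154 bases) and chr6:134043270-134043428 (159 bases), which had 23 and 37 counts in all. The longest was at chr2:41660857-41850790, with counts of 0, 8, 2, 3, 0 and 0, and next came chr6:99237306-99412306 (175001 bases) with 9, 4, 5, 5, 0 and 0. The third longest, at chr13:45948985-46110051 (161067 bases), was also the ninth most abundant. In it a wide span and a high count occurred together.

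Across the table, span and mean normalized count were nearly unrelated, with a Spearman rho of −0.03 over 1856 circRNAs (0.01 without library E). These are descriptions, since circRNAs share libraries. The 24 circRNAs of at least 100000 bases had a median mean of 4.13 and the 58 under 300 bases one of 5.28. The share listed in brain alone was 75.0% in the former and 56.9% in the latter. CircRNAs listed in all 5 organs had a median span of 3470 bases, against 6593 for those in brain alone. Weighting each circRNA by its counts gave a median span of 5477 bases in library A, 7675 in B, 8041 in C, 5052 in D, 5772 in E and 7076 in F.

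**Figure D3:**
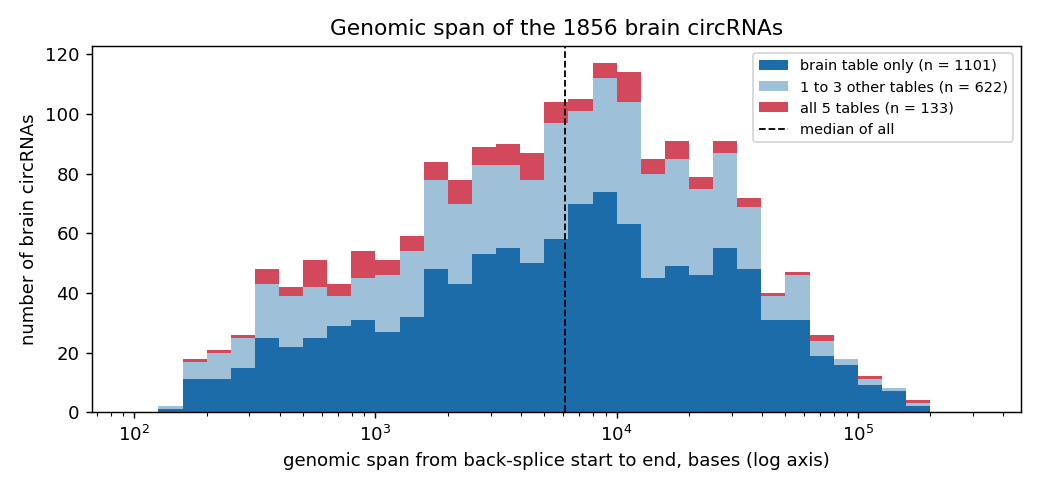
Number of brain circRNAs by genomic span in bases on a log axis, stacked by how many organ tables list the circRNA. The dashed line marks the median of 6092.5 bases, and the 133 circRNAs listed in all 5 tables have a median of 3470.

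The third question was how many circRNAs used the same back-splice ends. Of the 1856, 620 (33.4%) shared a start or an end with another, and 84 shared both a start and an end with others. There were 156 starts and 163 ends used more than once, among 1671 starts and 1656 ends. CircRNAs that shared an end had a median span of 14437.5 bases, against 3894 for the 1236 that shared none. Their median mean normalized counts were 4.71 and 3.52 (5.23 and 3.57 without library E).

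The end used most was chr15:39479906, with 7 circRNAs that spanned from 30802 to 81673 bases. The circRNA at chr15:39430339-39479906 held 67.3% of their summed mean. Its normalized counts were 119, 70.1, 118, 29.9, 0 and 215 in libraries A to F. In the authors' deposited table its log2 fold change was −2.15 ± 1.45 (SE), with an unadjusted DESeq2 p of 0.14. The next at this end, chr15:39448986-39479906, had counts of 98, 146, 61, 24, 0 and 2. In library A the former had 452 counts and in library B 165, so the balance between these 2 differed between libraries.

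The end at chr2:139899419 was used by 6 circRNAs, and none held most of the summed mean. The leader, chr2:139884014-139899419, held 39.5% and had counts of 261, 117, 78, 44, 13 and 8. The end at chr10:13942428 was used by 5, and chr10:13879945-13942428 held 76.5% of their summed mean. Over the 214 shared starts or ends with a summed mean of at least 10, the leading circRNA held a median of 76.4%, with a range from 27.9% to 99.4%.

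Near-equal ends followed 1 pattern. Pairs of circRNAs with 1 identical end and the other within 5 bases numbered 13, and in all 13 the shift was exactly 3 bases. No pair was shifted by 1, 2, 4 or 5 bases. Without the limit of 5 bases, the next distances were 12, 13, 19, 27 and 30 bases, with 1 pair each. The shift lay at the lower coordinate in 5 pairs and at the higher in 8, and the longer circRNA had more counts in 10 of the 13.

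The most counted pair was chr10:13879942-13942428 with 283 counts and chr10:13879945-13942428 with 1707. The form longer by 3 bases held 14.2% of the pair (95% Wilson interval 12.8 to 15.8). By library it held 13.6% in A, 15.0% in B, 11.7% in C and 16.9% in D, intervals that overlap. It held 33.3% in E, from 13 of 39 counts (20.6 to 49.0), and 0 of 15 in F, which allows a share of up to 20%.

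The pair at chr13:45948985-46110051 and chr13:45948985-46110048 had 1296 and 94 counts, and the shorter form held 6.76% (5.56 to 8.21). In libraries A, B, C and D it held 8.40%, 7.35%, 6.23% and 5.26%. The pair at chr3:51215471-51233456 and chr3:51215471-51233453 had 1021 and 61 counts, of which the shorter form held 5.64% (4.41 to 7.18). It held 7.72% in A (5.28 to 11.1), 6.33% in B, 4.83% in C and 0 of 102 counts in D (0 to 3.63). The intervals of A and D did not overlap, but the 0 in D can hide a read that its interval leaves out.

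In the fourth pair the more counted form differed between libraries. At chr9:21947608-21948156 counts were 0, 95, 113, 31, 0 and 17, and at chr9:21947608-21948153 they were 38, 25, 33, 11, 0 and 0. Library A, the deepest, had none of the form that was the major one in B, C, D and F, and 38 of the other. All these intervals cover counting error only.

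**Figure D4:**
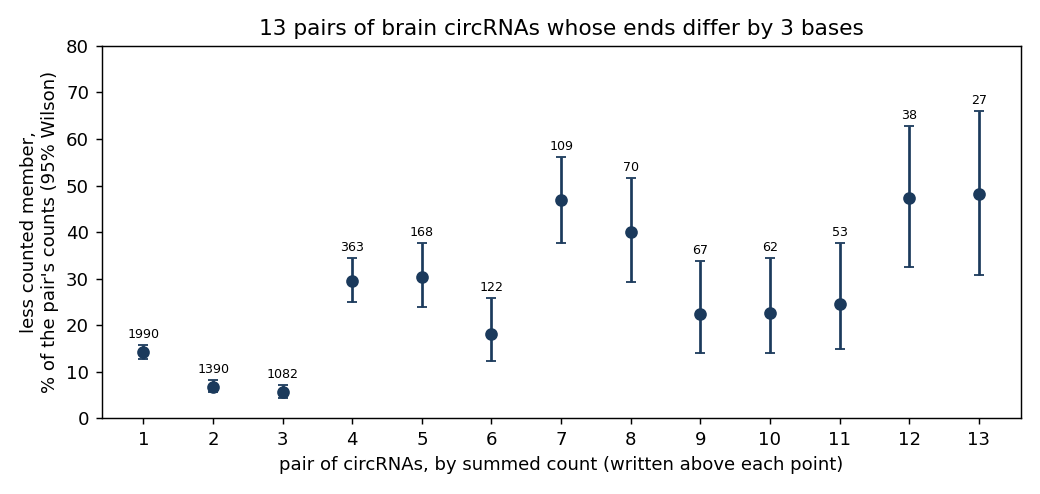
Share of the less counted member in each of the 13 pairs of brain circRNAs that differ by 3 bases at 1 end, over all 6 libraries, with 95% Wilson intervals and the pair's summed count above each point. The 3 most counted pairs lie at 14.2%, 6.76% and 5.64%, and the intervals widen as counts fall.

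Joined by overlap, the 1856 circRNAs formed 1451 loci. Of these, 1203 held a single circRNA and 248 held more, which together took in 653 circRNAs (35.2%), and 32 loci held 4 or more. In the 163 loci of several circRNAs with a summed mean of at least 10, the leading circRNA held over 50% of it in 144. The leader in library E was that of the other libraries, summed, in 70 of the 90 such loci with counts in E (77.8%). That share was 71.9% to 80.1% in the other 5 libraries. Within loci, library E thus resembled the rest in its leading circRNA.

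The Gigyf2 locus had the highest summed mean, 369, and was almost 1 circRNA. Besides the leader there were chr1:87291826-87301833 with 32 counts and chr1:87291826-87293001 with 26, from the same start. The leader held 98.2% of all counts (97.7 to 98.6) and between 97.4% and 100% in each library. The loci of the second and the third rank, at chr5:118731398-118731635 and at Ikzf1, held 1 circRNA each.

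Without library E the third locus by summed mean was chr13:45851297-46110051, with 5 circRNAs over 258755 bases. It had 2 main forms that end at or within 3 bases of the same place, chr13:45948985-46110051 and chr13:46005804-46110051. The longer held 26.4% of the locus in library A (23.5 to 29.5), 59.9% in B (56.1 to 63.6) and 72.6% in C (69.4 to 75.5). The shorter held 68.7%, 33.8% and 20.6%. Libraries A and C, on the same side of the contrast, were the extremes among the deep libraries, and D, from the other side, lay between with 45.0% and 52.5%.

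The locus chr2:139725692-139899419 held 12 circRNAs from 10 starts and 4 ends over 173728 bases. Of these, 10 were counted in A, 12 in B, 10 in C, 10 in D, 2 in E and 6 in F. Of the 12, 6 end at chr2:139899419 and 4 at chr2:139793499, and the remaining ends have 1 circRNA each. The most counted of the 4, chr2:139789090-139793499 and chr2:139789077-139793499, start 13 bases apart. The former held 20.2% of the locus in A, 5.96% in B, 1.96% in C and 19.4% in D. The form at chr2:139850619-139899419 held 11.3%, 23.3%, 22.2% and 12.9% in the same libraries. The form at chr2:139837993-139899419 held 4.16%, 13.6%, 12.4% and 12.2%. Library D was thus near A for the first of these forms, and near B and C for the last. B and C, from opposite sides, differed in the first, with Wilson intervals of 4.25 to 8.29 and 0.90 to 4.21.

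The locus chr4:150490653-150619402 also held 12 circRNAs, built from 5 starts and 5 ends. Its leader, chr4:150584460-150594495, had counts of 122, 76, 26, 30, 0 and 0, or 41.9% of the locus in A, 29.8% in B, 13.3% in C and 66.7% in D. The starts at chr4:150523800 and chr4:150553152 were each used by 4 circRNAs that end at 4 different places. No circRNA from these starts had a count in library E, and the only one of the 12 counted in E was chr4:150515980-150523925, with 5 counts.

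The locus chr6:36976977-37074561 held 9 circRNAs, all listed in brain alone. Its leader was chr6:37006698-37034963 with counts of 66, 94, 60, 13, 0 and 8. The locus had 159, 162, 125, 32 and 13 counts in libraries A, B, C, D and F, and 0 of the 5135 counts of library E. Normalized counts of the locus ranged from 41.8 to 68.8 in the other libraries. Each of the 9 zeros in E can hide a read, and 3 reads there correspond to a normalized count of 7.69 for 1 circRNA.

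By chromosome, brain circRNAs were most numerous on chromosome 2 with 162, chromosome 1 with 149 and chromosome 5 with 144. Chromosome 1 held 10.6% of the summed mean, and its share of circRNAs was 8.03%. Its summed mean of 1631 included 364.5 from the Gigyf2 circRNA. In the other organs chromosome 1 held 5.00% to 6.43% of the circRNAs listed. Chromosome 11 held 5.77% of the summed mean and 4.14% without library E, which reflects the Ikzf1 circRNA there. Median span ran from 1918 bases on chromosome 19 to 14078 on chromosome 13 among the autosomes.

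Chromosome X held 24 brain circRNAs (1.29%), and 17 of them were listed in brain alone. The X share was 0.602% to 0.703% in the other organs, from 2 to 7 circRNAs each. The most abundant, chrX:100257380-100259184, had counts of 72, 38, 31, 15, 7 and 0. The next were chrX:143129678-143132415 with 30, 22, 12, 3, 7 and 0, and chrX:142492644-142499144 with 35, 35, 32, 0, 0 and 0. Chromosome Y held 1. Of the 24 on X, 0 had an unadjusted p below 0.05, and with 2.05% of all tested circRNAs below it, that count says nothing particular of X.

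The last question was whether brain circRNAs differed between Ftsj1_DF and WT. With the threshold of 0.05 on the adjusted p, the authors' deposited table (DESeq2 Wald test with Benjamini-Hochberg adjustment) called 0 of the 1853 circRNAs tested, or 0%. The smallest adjusted p was 0.589. An unadjusted p below 0.05 was reached by 38, or 2.05% of those tested, 12 with a positive fold change (0.648%) and 26 with a negative one (1.40%). The deposited Wald statistics had an SD of 0.76. A p below the threshold here is therefore no call, and the circRNAs below are described by their values.

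The errors were wide. The median SE of the log2 fold change was 1.85 in the authors' deposited table, so a typical 95% interval reached 3.62 to either side, or 12.3-fold. The smallest SE was 1.06, at chr9:63523968-63526513, and its interval still reached 4.21-fold to either side of its estimate. The smallest SE was 0.226 in the heart table, 0.379 in liver, 0.713 in kidney and 1.17 in spleen. Median SE fell with the number of libraries that held the circRNA, from 2.12 with 3 libraries to 1.71 with 4, 1.47 with 5 and 1.23 with 6.

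The dispersion behind these errors was recovered too, as the value at which the fit gave the deposited SE. It had a median of 2.00, which corresponds to an SD between libraries of 1.41 times the mean. The lowest was 0.77 and the highest 4.00. The 12 circRNAs with a mean of 100 or more had a median SE of 1.25.

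The smallest SEs belonged to circRNAs counted in all 6 libraries. At chr9:63523968-63526513 counts were 130, 184, 74, 51, 26 and 9, and the log2 fold change was 0.93 ± 1.06 (SE) in the authors' deposited table. At chr18:79129766-79130395 counts were 147, 167, 97, 35, 15 and 16, with a fold change of 0.00 ± 1.08. At chr3:135361261-135375100 counts were 258, 125, 106, 31, 15 and 12, with −0.40 ± 1.06, and at chr15:61978997-61979314 they were 137, 141, 128, 41, 19 and 9, with 0.19 ± 1.08. All 4 intervals span 0 and leave changes of several-fold undetectable.

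The signs leaned slightly to the negative. The median log2 fold change was −0.14, with quartiles of −0.98 and 0.69, and 1020 of the 1856 (55.0%) were negative. This lean moved with whichever library was left out, E among them. CircRNAs with a count in E had a median of 0.59 (480 circRNAs) and those without one a median of −0.40 (1376). Of the 156 circRNAs with over 50% of the normalized count in E, 152 were positive. Library E is on the positive side, so dividing circRNAs by their counts in E favours these signs by construction. A refit without library E, with the authors' dispersions and size factors held fixed, gave a median of 0.00 over all circRNAs and changed the sign of 382 (20.6%). The same refit gave a median of 0.005 without A, −0.53 without B, 0.11 without C, −0.26 without D and −0.36 without F.

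The organs that list a circRNA also moved with its sign. The 225 spleen-listed circRNAs had a median log2 fold change of 0.70 and 71.6% were positive, and the 1101 brain-only ones had a median of −0.36 with 39.1% positive. Without library E the medians were −0.02 and −0.03, with 48.9% and 49.0% positive. The difference between these groups of circRNAs is thus present with library E and gone without it.

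Among the 12 circRNAs with an unadjusted p below 0.05 and a positive fold change, library E held over 50% of the normalized count in 11, and D in the other. Of the 12, 9 were also listed in spleen and 1 in brain alone, where the whole table has 12.1% and 59.3%. Spleen-listed circRNAs took 75.3% of all counts of library E. None of the 12 had a count in library F. Of the 12, 1 kept an unadjusted p below 0.05 in the refit without library A and 2 without E, against 8 without F, 10 without C and all 12 without B or D. In the refit without E no other positive circRNA reached one.

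The 2 that kept it without E had no count in libraries A, C and F. At chr19:45963406-45963714 (309 bases) counts were 0, 8, 0, 8, 2 and 0, and the unadjusted p was 0.0070 in the authors' deposited table (DESeq2, adjusted p 1.00). Against a floor of 3 counts over libraries A, C and F together it was at least 10.1-fold higher in B, D and E. At chr5:137310136-137310495 (360 bases) counts were 0, 10, 0, 2, 4 and 0, with a DESeq2 p of 0.0107 and a pooled ratio of 9.0-fold. Its interval ran from 1.19 to 9.04. The deepest library, A, had no count of either. In the refit without A the unadjusted p was 0.049 for the former and 0.064 for the latter.

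The other positive circRNAs with the smallest p leaned on E. At chr1:177037542-177076447 and at chr11:70765572-70777997 the counts were the same, 0, 2, 0, 2, 7 and 0, and both had p = 0.0107 in the authors' deposited table (DESeq2). Without E the refitted unadjusted p was 0.153 for both, with a log2 fold change of 3.39 (SE 2.37). At chr10:77466560-77466728 counts were 6, 4, 7, 6, 34 and 0, and the log2 fold change of 3.91 ± 1.69 (SE) became 1.17 without E. At chr6:134039027-134043428 counts were 2, 17, 8, 11, 18 and 0, and the log2 fold change was 3.53 ± 1.54 (SE) with a refitted unadjusted p of 0.143 without E.

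Among the 26 with a negative fold change, 20 were listed in brain alone and none in spleen, where the whole table has 59.3% listed in brain alone and 12.1% in spleen. Library F, the shallowest, had the highest normalized count in 23 and over 50% of it in 18. Library E had no count in 25, D in 23 and B in 19. Of the 26, 13 kept an unadjusted p below 0.05 in the refit without library B, 15 without F, 18 without D and 22 without each of A, C and E.

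The smallest p of the table, 0.000318, belonged to chr17:66331071-66360086, which is listed in brain alone (DESeq2, adjusted p 0.589 in the authors' deposited table). Its counts were 58, 0, 7, 0, 0 and 18 in libraries A to F. It was at least 16.4-fold higher in A, C and F than a floor of 3 counts over B, D and E together, and library B, second in depth, had none. Library F held 79.9% of the normalized count. With no count in B, D and E, the refit without library F could only give a negative fold change, and its unadjusted p stayed below 0.05.

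Next was chr2:158224424-158225083, with counts of 67, 0, 11, 0, 0 and 6, a p of 0.000985 and at least 16.6-fold. The third, chr4:9583812-9610938, had 14, 0, 10, 0, 0 and 8 counts, a DESeq2 p of 0.00265 and a pooled ratio of 6.32-fold. The interval there ran from −9.9 to −2.1. Its 27127 bases equal an exon distance of Asph, which encodes aspartate beta-hydroxylase. At chr1:8624949-8695105 counts were 17, 0, 8, 0, 0 and 7, at chr2:68189158-68240485 they were 26, 0, 8, 0, 0 and 4, and at chr10:7090319-7104485 they were 12, 0, 9, 0, 0 and 5. All 6 were absent from B, D and E and present in A, C and F, and the refitted log2 fold changes ranged from 4.26 to 7.78 in size when 1 library was left out. With 1 side empty, their sign could not change and their size depends on how the fit treats zeros.

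Such circRNAs with counts on 1 side only numbered 22, 18 on the side of A, C and F and 4 on the other. All 22 had an unadjusted p below 0.05 and make up 22 of the 38. Their fitted log2 fold changes, 4.45 to 7.20 in size, depend on how the fit treats zeros and are no bounds. Against a floor of 3 counts over the empty side, their pooled ratios ran from 3.36-fold to 16.6-fold, with a median of 5.96-fold. These ratios leave out the spread between libraries and are no bounds either. Because the search required counts in at least 3 libraries, such a circRNA needs a count in each library of 1 side. Over all tested circRNAs, the normalized counts of the sides did not overlap in 87, or 4.70%.

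**Figure D5:**
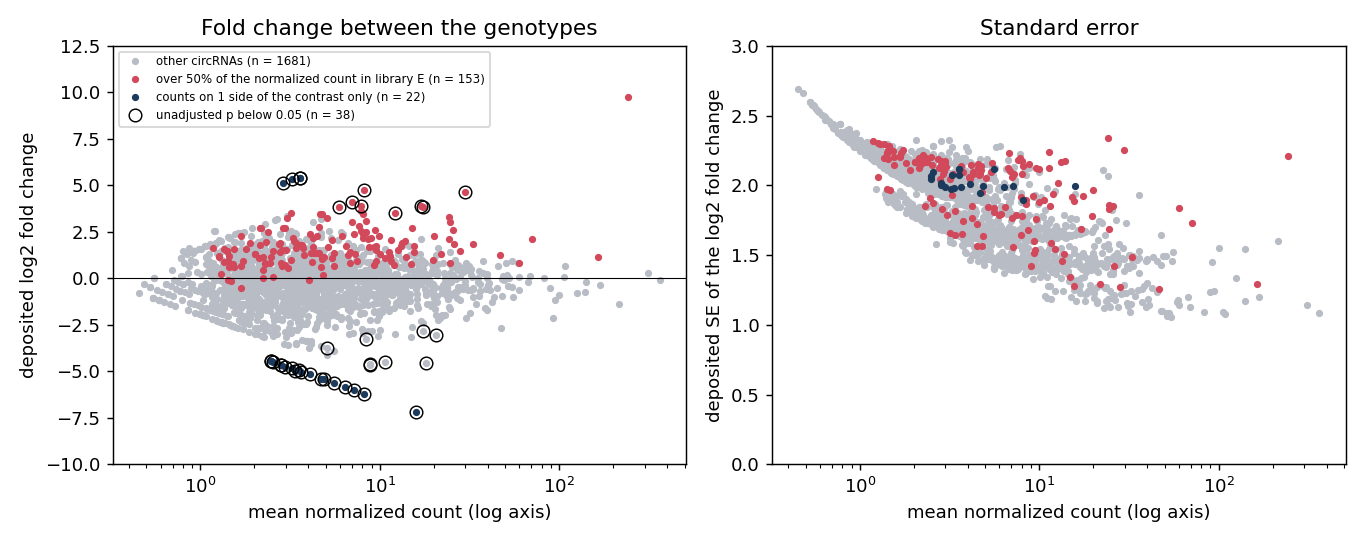
Deposited log2 fold change (left) and its SE (right) against the mean normalized count of the 1856 brain circRNAs on a log axis. Red marks over 50% of the normalized count in library E (leaving out those with counts on 1 side only), dark blue the 22 with counts on 1 side only and rings the 38 with an unadjusted p below 0.05. Red points lie almost all above 0, which their choice by library E, on the positive side, favours by construction.

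The abundant circRNAs gave no small p. Of the 12 leaders, 11 had a p, between 0.37 and 0.94 in the authors' deposited table (DESeq2, unadjusted), and the sides overlapped in all 11. The log2 fold change of the Gigyf2 circRNA was −0.10 with library E and 0.21 without it, and its SE rose from 1.09 to 1.22. At chr2:70600348-70617339 the fold change of 1.16 ± 1.29 became −0.15 ± 1.45. At chr5:117638778-117643704 it went from −1.40 ± 1.60 to −0.82 ± 1.79. Each of these shifts is smaller than the SE of the refit without E.

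A p was missing for 3 circRNAs, and in each 1 library held about 80% or more of the normalized count. For the Ikzf1 circRNA it was E with 99.3%, and the deposited log2 fold change of 9.73 was the largest of the table. It became 3.01 ± 2.47 (SE) in the refit without E. At chr9:96484766-96493552 counts were 133, 3, 21, 2, 133 and 8, and E held 80.2%. At chr5:118809078-118819036 counts were 135, 16, 3, 0, 0 and 0, and A held 80.8%. DESeq2 can withhold a p where 1 library has an extreme count, and whether it did so here is not stated in the sources at hand.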

How the data were processed

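The values are the authors' deposited brain table, with 1 row per circRNA. BWA 0.7.17-r1188, DESeq2 and the build GRCm39 stand in the submitters' processing notes, and no circRNA caller or model formula is stated. Per the file headers, the deposited columns are a mean abundance signal (the mean normalized count), a log2 fold change with its SE, a Wald score, and p-values with Benjamini-Hochberg adjustment. Counts per library were recovered from the printed means by an exact search over whole numbers. They were checked against the deposited fold changes with a negative binomial fit (lower limit of 0.5 on fitted means). The dispersion of the fit was set to give the deposited SE, so the SE is no check. Nor is the fold change for the 14 circRNAs whose counts were chosen by it. The search for means below 25 was also run on simulated data that followed its rules, with random size factors. The outcome of that run is not reported here, so it is not counted as a check. The search used for the 107 circRNAs above that mean was not run on simulated data. Because libraries were not matched to genotypes, no count test of the genotypes was added; the tests are the authors' DESeq2 tests. Refits without 1 library keep the authors' dispersions and size factors. Intervals on shares are 95% Wilson intervals and cover counting error only. Nothing in the labels says that p-values measure more than the spread between these 3 mice per genotype.

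CircRNAs were named by rule: the 12 most abundant, 6 by smallest p of each sign, 6 by smallest SE, those of the leading loci and shared ends, the 3 longest and shortest, those without a p and the 3 most abundant on X. The near-equal pairs and the leaders of other organs were added after their values were seen. Members and lists were chosen with earlier results of these data known. Host gene lists were prepared but not counted, since no annotation of the build was used here. Scripts ran in Python with numpy, scipy, numba and sympy.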

Additional observations from a re-analysis of the deposited data

Results flagged for a closer look

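In each group of 6 brain libraries, 21 quantities were checked for 1 library far from the rest (gap to the nearest library over the whole range above the 95% critical value of Dixon), and 8 were found, all with library E as the extreme. Chance alone would mark about 1 in 20 groups, and these quantities share their counts, so they are not 8 separate results.

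Library E had the highest share of counts in circRNAs also listed in another organ. The share was 75.3% for spleen (next highest library 32.8%), 83.5% for kidney (next 49.5%), 72.6% for heart (next 48.3%) and 68.4% for liver (next 49.0%). It had the lowest share in circRNAs listed in brain alone, 8.32%, with the next lowest library at 38.2%.

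Its leading circRNA, that of Ikzf1, took 11.0% of its counts, against at most 3.90% for the leading circRNA of any other library. The normalized count of chr11:11650205-11657904, the Ikzf1 circRNA, was 1448 in library E and at most 8.15 in the others. That of chr2:70600348-70617339 was 497 in E and at most 157 in the others. Total counts, circRNAs detected and count-weighted median span marked no library.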

How the results depend on the processing

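The count of 0 called circRNAs held under the other 5 settings (mean normalized count of at least 5 or 10, a t curve with 4 degrees of freedom, circRNAs with counts on 1 side left out, a threshold of 0.1) and without each of the 6 libraries. That count cannot become smaller, and a t curve cannot raise it. The threshold of 0.1 and leaving out a library could have raised it, and it stayed at 0. With errors this wide, that does not show that no circRNA differs. The number with an unadjusted p below 0.05 was 38, and 21 at a mean of at least 5, 9 at a mean of at least 10, 16 without the circRNAs counted on 1 side only, and 4 with the t curve. Positive ones numbered 4 of these at a mean of at least 10 and 0 with the t curve. Negative ones numbered 13 and 5 at the 2 minimums, 8 without the circRNAs counted on 1 side only and 4 with the t curve. Leaving out 1 library, an alternative added after seeing the data, gave 27 (without F) to 65 (without B), and 64 without C. Positive ones then ranged from 2 (without E) to 41 (without C), with 7 without A, and negative ones from 16 (without F) to 53 (without B), with 42 without E. The median log2 fold change ranged from −0.53 (without B) to 0.11 (without C). The 6 circRNAs of each sign with the smallest p kept their direction without each library, and the unadjusted p passed 0.05 for 5 without A and 4 without E. All 6 negative ones and 4 of the positive ones had counts on 1 side only. Leaving out 1 library could not reverse their direction, so for them this says nothing of stability. CircRNAs that share a back-splice end numbered 192 at a mean of at least 5, in place of 620, since fewer circRNAs were counted. The median span weighted by means without library E was 6683 bases. Where no cause is given, the cause was not tested. No paired analysis was possible because the recovered libraries could not be matched to mice, and the deposited table carries no mouse numbers. The shallow libraries E and F limit what could be detected.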
